A study of Mus musculus with 16 samples.

Results

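The enzymes that write, copy and remove 5-methylcytosine were followed through the differentiation of mouse embryonic stem (ES) cells into blood and endothelial precursors. The group comprised the DNA methyltransferases Dnmt1, Dnmt3a and Dnmt3b, their relative Dnmt3l, the TET dioxygenases Tet1, Tet2 and Tet3, and Uhrf1. Members were found by gene symbol in the probe annotation of the array, and every probe set carrying only that symbol was taken. This gave 20 of 45037 probe sets, which stand for 8 of the 18193 genes that have a probe set of their own. Dnmt3a had 5 probe sets, Tet1 had 4, Dnmt1 had 3, Uhrf1, Dnmt3b and Tet2 had 2 each, and Dnmt3l and Tet3 had 1 each. A gene is represented by its brightest probe set unless another is named.

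Dnmt1 copies methyl groups onto the new strand after replication, and Uhrf1 brings it to half-methylated CpG sites. Dnmt3a and Dnmt3b methylate DNA that carried no mark, helped by Dnmt3l, a relative without catalytic activity of its own that is abundant in germ cells and early embryos. The TET enzymes oxidise 5-methylcytosine, a step toward its loss. In mouse ES cells Tet1, Dnmt3b and Dnmt3l are known to be abundant, and Tet2 and Dnmt3a are known as recurrent targets of mutation in human blood cell cancers.

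CCE cells, a mouse ES cell line maintained on irradiated embryonic fibroblasts, formed embryoid bodies once leukaemia inhibitory factor was taken away, and cells were fixed, stained and sorted by flow cytometry. The populations were VEGF-R2 positive and VEGF-R2 negative cells of day 2.5, CD41 positive and CD41 negative cells of day 3.5, CD144 positive and CD144 negative cells of day 3.5, and CD144 positive and CD144 negative cells of day 6.5. VEGF-R2 is a receptor of mesodermal and vascular precursors, CD41 an integrin of early blood cells, and CD144 (VE-cadherin) the adhesion protein of endothelial junctions. Each population was measured on 2 arrays from separately conducted experiments with the 1 cell line, and a negative population is not 1 cell type. The labels name 1 marker per population, while the study's text also describes double staining and names some day 3.5 populations by VEGF-R2 as well, so the full gates are not settled here. Arrays of sorted E9.5 embryo cells were not analysed here.

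Promoter windows of the members, 250 bases before to 50 bases after each annotated start, were read from RefSeq on build GRCm38.p6, where all 8 genes matched and gave 15 windows. 5 windows are shown. Dnmt3l, Tet1 and Dnmt3b, 3 of the members whose signals differed widely over the populations, have their CpG dinucleotides, the site these enzymes act on, in capitals. The pair that copies methylation, Dnmt1 and Uhrf1, have in capitals the letters TTTCCCGC, TTTCGCGC, TTTGCCGC or TTTGGCGC, the binding motif of the E2F factors of replicating cells, searched on both strands.
Dnmt3l: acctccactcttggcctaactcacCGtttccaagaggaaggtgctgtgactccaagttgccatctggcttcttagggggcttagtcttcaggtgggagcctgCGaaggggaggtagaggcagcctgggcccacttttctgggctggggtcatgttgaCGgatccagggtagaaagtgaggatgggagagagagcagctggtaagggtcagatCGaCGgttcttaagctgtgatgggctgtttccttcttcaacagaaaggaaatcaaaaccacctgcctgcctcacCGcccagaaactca
Tet1: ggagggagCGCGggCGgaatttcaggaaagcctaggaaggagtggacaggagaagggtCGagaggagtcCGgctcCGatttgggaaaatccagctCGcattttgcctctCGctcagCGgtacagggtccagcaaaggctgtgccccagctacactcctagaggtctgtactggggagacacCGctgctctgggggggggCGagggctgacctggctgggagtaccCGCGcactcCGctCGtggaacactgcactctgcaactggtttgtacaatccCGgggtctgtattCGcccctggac
Dnmt3b: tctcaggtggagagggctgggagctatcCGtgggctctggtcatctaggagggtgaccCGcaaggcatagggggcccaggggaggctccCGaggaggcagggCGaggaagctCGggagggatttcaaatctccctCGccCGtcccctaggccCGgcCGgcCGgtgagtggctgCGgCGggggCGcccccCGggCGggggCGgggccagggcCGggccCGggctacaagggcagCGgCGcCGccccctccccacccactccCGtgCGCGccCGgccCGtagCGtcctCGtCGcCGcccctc
Dnmt1: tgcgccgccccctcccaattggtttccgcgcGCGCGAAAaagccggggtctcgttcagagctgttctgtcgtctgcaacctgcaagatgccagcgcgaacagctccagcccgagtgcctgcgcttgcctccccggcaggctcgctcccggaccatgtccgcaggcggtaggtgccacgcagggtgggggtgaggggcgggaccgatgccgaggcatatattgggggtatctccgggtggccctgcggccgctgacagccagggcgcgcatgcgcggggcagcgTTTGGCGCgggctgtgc
Uhrf1: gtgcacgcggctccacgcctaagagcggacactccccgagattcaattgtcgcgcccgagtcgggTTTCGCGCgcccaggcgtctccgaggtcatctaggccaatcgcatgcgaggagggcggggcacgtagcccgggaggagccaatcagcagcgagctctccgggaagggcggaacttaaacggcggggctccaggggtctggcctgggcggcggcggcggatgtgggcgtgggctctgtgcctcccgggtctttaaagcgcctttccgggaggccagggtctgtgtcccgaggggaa

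The Dnmt3l window (chr10:78042037-78042336, plus strand) held 6 CpG dinucleotides, and the windows of its other annotated starts held 4 and 3. The median over all 32851 promoter windows of that length was 7. By contrast the Dnmt3b window (chr2:153649199-153649498, plus strand) held 30, a number that 11.7% of all windows reached, and the Tet1 window (chr10:62887275-62887574, minus strand) held 17, which 31.4% reached. The upstream pair of Dnmt3a windows held 46 and 47, and the window of its start inside the gene held 18. Of the 15 windows, that of Dnmt1 at chr9:20952574-20952873 (minus strand) held 2 of the E2F-type motifs and that of Uhrf1 at chr17:56304063-56304362 (plus strand) held 1. The motifs did not overlap each other. No other member window held these letters, and 2.26% of all windows did.

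The sort markers were higher in their positive cells. Kdr, which encodes VEGF-R2, had signals of 5475 and 6297 in VEGF-R2 positive cells, against 2088 and 2077 in VEGF-R2 negative cells. Itga2b, which encodes CD41, had 7523 and 5299 in CD41 positive cells, against 227 and 195 in CD41 negative cells, and Cdh5, which encodes CD144, had 1863 to 3166 in CD144 positive cells of both days, against 20.5 to 38.3 in CD144 negative cells. The summed signal of 8 endothelial markers was 12521 to 25818 in CD144 positive cells of both days, against 262.07 to 493 in CD144 negative cells. The positive and negative arrays also differed in ways unrelated to any one gene: the geometric mean signal of spiked-in control transcripts lay between 6481 and 11180 for positive populations (8 arrays) and between 2134 and 3022 for negative ones (8 arrays), and duplicates correlated with a Spearman coefficient of 0.872 to 0.895 and of 0.945 to 0.955. Each comparison of a positive with a negative population carries that difference, and its part in the results was not tested. In bulk samples of this kind, fewer cells that express a gene and less RNA per cell cannot be told apart.

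**Figure D1:**
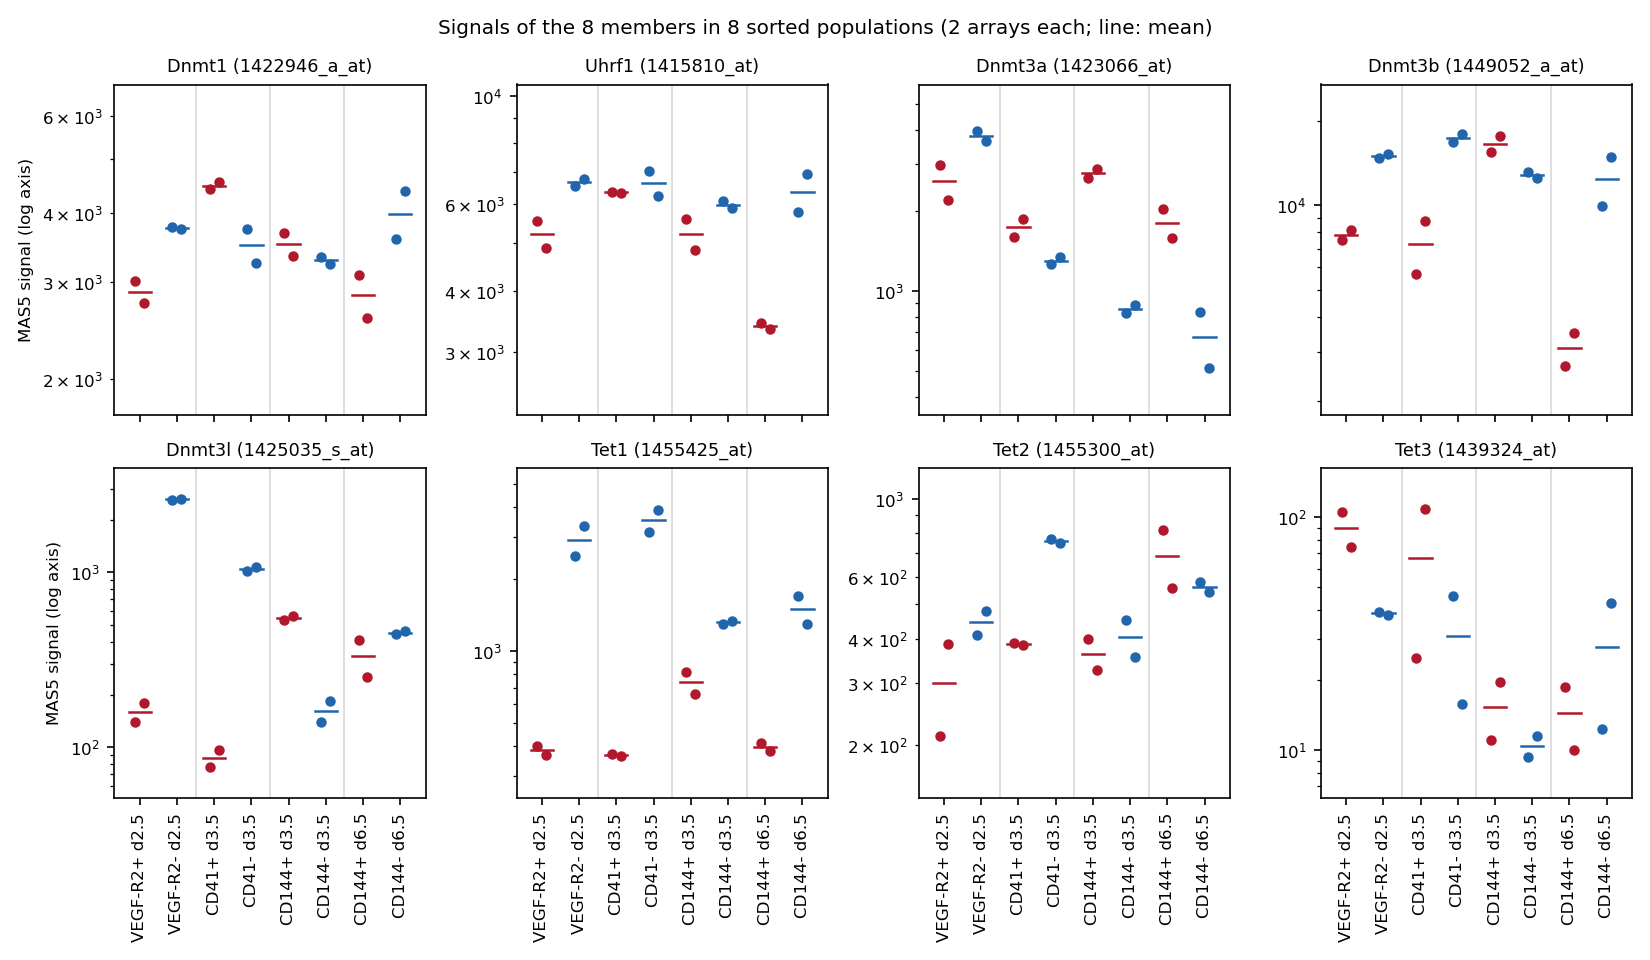
MAS5 signal (log axis) of the brightest probe set of each member on the 16 arrays, with each positive population left of its negative one; points are arrays and lines are means of 2 arrays. From means of log2(signal + 6), Dnmt3l differed 28.6-fold between the highest and lowest population and Dnmt1 differed 1.59-fold.

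Dnmt3l and Tet1 differed most between populations and Dnmt1 least, by the brightest probe sets. On the scale of log2(signal + 6), on which all changes are given, the highest and lowest population means differed 1.59-fold for Dnmt1, 1.96-fold for Uhrf1 and 2.61-fold for Tet2. They differed 5.68-fold for Dnmt3b, 5.78-fold for Dnmt3a, 9.44-fold for Tet1 and 28.6-fold for Dnmt3l. These ranges depend on the probe set: the other one of Uhrf1, 1415811_at, had mean signals of 455 to 2723, and 1447877_x_at of Dnmt1 had 763 to 1638. Of the 28 pairs of populations, 24 differed past the threshold (adjusted p under 0.05 in limma) for Dnmt3l, 23 for Tet1, 18 for Dnmt3a, 17 for Dnmt3b, 8 for Tet2 and 7 each for Dnmt1 and Uhrf1. Tet3 differed in 1. Its single probe set had a mean signal of 36.6, below the median of all values, 85.8, with signals of 9.33 to 108 on the 16 arrays, so that little could be measured for this gene.

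Within the sorts, most called members were lower in the positive cells of day 2.5 and in CD41 positive cells, while CD144 positive cells of day 3.5 stood apart. In VEGF-R2 positive cells 5 of the 8 members were lower than in VEGF-R2 negative cells and none was higher, where 24.9% of all probe sets were called, 13.8% lower and 11.1% higher. In CD41 positive cells 4 members were lower than in CD41 negative cells and none was higher, where 29.3% of all probe sets were called, 15.8% lower and 13.5% higher. In CD144 positive cells of day 3.5, 2 members were higher and 1 was lower than in CD144 negative cells, beside 9.49% and 10.5% of all probe sets, 20.0% together. At day 6.5, 1 member was higher and 4 were lower in CD144 positive cells, beside 9.41% and 10.1% of all probe sets, 19.5% together.

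**Figure D2:**
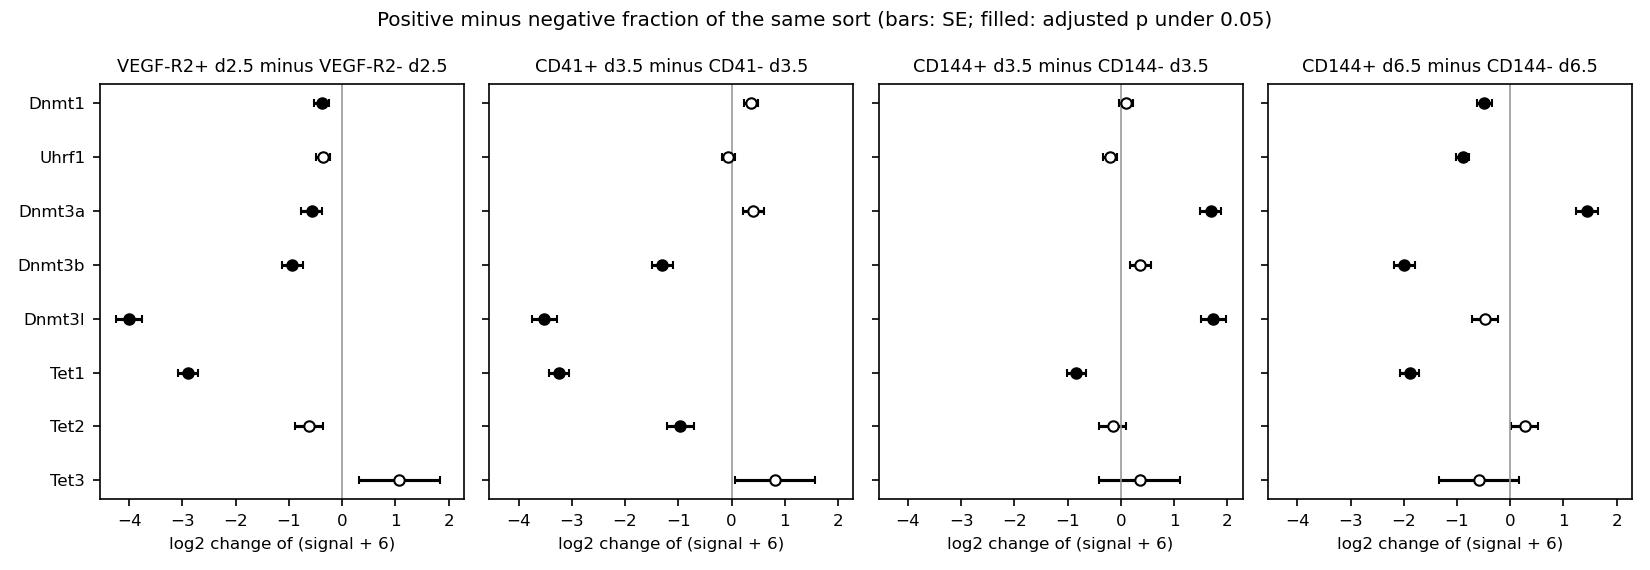
Change of each member between positive and negative cells of the same sort, as the difference of log2(signal + 6), with standard errors; filled points passed an adjusted p of 0.05. Dnmt3l lay at -4.00 at day 2.5 and at 1.74 in the CD144 sort of day 3.5, and Tet1 lay below 0 in all 4 sorts.

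Of the pair that copies methylation, Dnmt1 was modestly lower in the positive cells of the VEGF-R2 sort and of the CD144 sort of day 6.5. Its signals were 3011 and 2753 in VEGF-R2 positive cells, against 3780 and 3750 in VEGF-R2 negative cells. The change was -0.39 (standard error 0.14, adjusted p = 0.0466). In the day 6.5 sort they were 3090 and 2587 in CD144 positive cells, against 3586 and 4384 in CD144 negative cells, a change of -0.49 (standard error 0.14, adjusted p = 0.0171). In neither sort did the groups overlap. Here and below, with 2 arrays per group, a lack of overlap is weak evidence. The share of all probe sets without overlap was not counted. In the CD41 sort Dnmt1 had 4416 and 4554 in positive cells, against 3748 and 3247 in negative cells, and the change of 0.36 (standard error 0.14) missed the threshold at an adjusted p of 0.055. In the CD144 sort of day 3.5 the signals were 3678 and 3340 in positive cells and 3328 and 3237 in negative cells, and the change of 0.09 was within its standard error. The call at day 2.5 was lost under 11 of 27 alternative settings, among them leaving out either array of either VEGF-R2 population or of either negative population of day 3.5 (adjusted p of up to 0.212), and that at day 6.5 was lost without replicate 2 of the CD144 positive cells (-0.36, adjusted p = 0.158) or of the CD144 negative cells (-0.34, adjusted p = 0.158).

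Uhrf1 was lower in CD144 positive cells of day 6.5, where it had 3439 and 3350, against 5777 and 6920 in CD144 negative cells. The change was -0.90 (standard error 0.13, adjusted p = 0.000105). With this probe set the other 14 arrays were all higher, at 4838 to 7022, whereas with 1415811_at the mean was lowest in CD144 positive cells of day 3.5, at 455, against 552 in those of day 6.5. The genes of DNA replication and mitosis moved in the same sort, since 7 of 11 markers of cycling cells were lower and 1 was higher in CD144 positive cells of day 6.5. Their summed signal was 85930 and 85389 in CD144 positive cells of day 6.5, against 104510 and 106330 in CD144 negative cells, and 102210 to 128000 on the arrays of the other 6 populations. Markers of feeder fibroblasts and mesenchyme, 8 genes, also stood highest there, with a sum of 7916 and 6574 in CD144 positive cells of day 6.5, against 4698 and 4844 in CD144 negative cells, and 554 to 2070 on the arrays of the other 6 populations. Of these 8 genes 1 was higher, 1 was lower and 6 were not called in this sort. The part of cell division or of such cells in the Uhrf1 value was not tested. In the other sorts Uhrf1 had changes of -0.36 (adjusted p = 0.0541) for VEGF-R2, -0.06 for CD41 and -0.20 for CD144 at day 3.5, none of which was called.

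Among the enzymes that set new marks, Dnmt3a was lower in VEGF-R2 positive cells and higher in both CD144 positive populations. In the VEGF-R2 sort it had 2969 and 2197 in positive cells, against 3962 and 3640 in negative cells, a change of -0.57 (standard error 0.20, adjusted p = 0.0468) that was -0.35 (adjusted p = 0.34) without replicate 2 of the positive cells and was lost under 13 of 27 alternatives. At day 3.5 it had 2643 and 2871 in CD144 positive cells, against 822 and 882 in CD144 negative cells. The change was 1.69 (standard error 0.20, adjusted p = 2.03e-05), a 3.22-fold difference. At day 6.5 it had 2023 and 1571 in CD144 positive cells, against 830 and 513 in CD144 negative cells, a change of 1.44 (standard error 0.20, adjusted p = 7.76e-05). The CD144 groups did not overlap on either day, and neither call was lost under any of 27 alternatives. None of these used another Dnmt3a probe set, since the brightest was also the one of largest variance. The other probe sets did not all follow it, as given below. In the CD41 sort the signals were 1594 and 1862 in positive cells, against 1255 and 1339 in negative cells, and the change of 0.41 was not called (adjusted p = 0.145).

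Dnmt3b, the other enzyme that sets new marks, was lower in the positive cells of 3 sorts. It had 7543 and 8173 in VEGF-R2 positive cells, against 14744 and 15287 in VEGF-R2 negative cells, a change of -0.93 (standard error 0.20, adjusted p = 0.00241). CD41 positive cells had 5679 and 8805, against 16829 and 17995 in CD41 negative cells, a change of -1.30 (adjusted p = 9.77e-05). At day 6.5 it had 2673 and 3505 in CD144 positive cells, against 9954 and 14902 in CD144 negative cells, a change of -1.99 (adjusted p = 3.15e-06) or 3.97-fold lower. The positive and negative arrays did not overlap in any of these sorts. At day 3.5 it had 15534 and 17634 in CD144 positive cells, against 13179 and 12481 in CD144 negative cells, and this change of 0.37 was not called (adjusted p = 0.226). The second probe set of Dnmt3b, 1418351_a_at, had changes of -1.79, -1.38, 0.69 and -2.03 in the 4 sorts, all called, so the value at day 3.5 passed the threshold with that probe set (adjusted p = 0.00262).

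Dnmt3l, the helper of both, showed the widest changes. It had 139.6 and 178 in VEGF-R2 positive cells, against 2595 and 2643 in VEGF-R2 negative cells. That is a change of -4.00 (standard error 0.24, adjusted p = 1.35e-08), 16.03-fold lower. CD41 positive cells had 76.7 and 96.2, against 1020 and 1072 in CD41 negative cells, a change of -3.52 (adjusted p = 1.12e-08). The CD144 sort of day 3.5 ran the other way, with 536 and 563 in CD144 positive cells, against 139.2 and 185 in CD144 negative cells, a change of 1.74 (standard error 0.24, adjusted p = 7.05e-05). No arrays overlapped in these 3 sorts, and none of the 3 calls was lost under any alternative. At day 6.5 Dnmt3l had 413 and 253 in CD144 positive cells, against 442 and 464 in CD144 negative cells, and the change of -0.48 was not called (adjusted p = 0.188). The CD41 negative and CD144 negative cells were both taken at day 3.5, yet held 1020 and 1072 and 139.2 and 185.

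Markers of pluripotent cells also differed between the sorts. Of 10 such genes, 8 were lower and none higher in VEGF-R2 positive cells, and 10 were lower in CD41 positive cells. In CD144 positive cells 5 were higher, 2 lower and 3 not called at day 3.5, and 4 were lower and none higher at day 6.5. Their summed signal was 30663 and 28229 in VEGF-R2 positive cells, against 60668 and 62447 in VEGF-R2 negative cells. It was 4500 and 11379 in CD41 positive cells, against 84247 and 84652 in CD41 negative cells. In the CD144 sorts it was 51200 and 57193 in CD144 positive cells and 49138 and 49509 in CD144 negative cells of day 3.5, and 24750 and 27917 in CD144 positive cells and 46452 and 46437 in CD144 negative cells of day 6.5. None of the 10 markers was at 0, and 1 lay below the median of all values in CD41 positive cells. How far cells that kept an ES cell state account for the signals of Dnmt3l, Dnmt3b or Tet1 was not tested.

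By its brightest probe set Tet1, a TET enzyme abundant in ES cells, was lower in the positive cells of every sort. It had 401 and 368 in VEGF-R2 positive cells, against 2507 and 3343 in VEGF-R2 negative cells, a change of -2.89 (standard error 0.18, adjusted p = 2.13e-08). The CD41 sort gave 370.3 and 362 in positive cells, against 3159 and 3898 in CD41 negative cells. This change of -3.24 (adjusted p = 1.3e-09), or 9.44-fold, was the largest of Tet1. At day 3.5 it had 818 and 661 in CD144 positive cells, against 1300 and 1338 in CD144 negative cells, a change of -0.84 (adjusted p = 0.0032). At day 6.5 it had 412 and 382 in CD144 positive cells, against 1705 and 1290 in CD144 negative cells, a change of -1.89 (adjusted p = 1.94e-06). The groups did not overlap in any sort. The call at day 3.5 was lost without replicate 2 of the CD144 positive cells (-0.69, adjusted p = 0.051), and there the probe set 1419896_at had a change of 0.48 (adjusted p = 0.407).

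Tet2, a TET enzyme of blood cells, was lower in CD41 positive cells, with 389.8 and 384 against 769.5 and 746 in CD41 negative cells. The change was -0.96 (standard error 0.26, adjusted p = 0.00873), and with replicate 1 of CD41 negative cells left out it was -0.94 (adjusted p = 0.0566). The other sorts gave -0.62 for VEGF-R2 (adjusted p = 0.0892), -0.15 for CD144 at day 3.5 and 0.27 for CD144 at day 6.5. None of these was called, but with the second probe set, 1438781_at, Tet2 was lower in VEGF-R2 positive cells by a change of -1.28 (adjusted p = 0.0245). Replicates of Tet2 spread widely in some populations, with 211 and 387 in VEGF-R2 positive cells and 815 and 558 in CD144 positive cells of day 6.5. Tet3, the TET enzyme of the zygote, had changes of 1.07, 0.82, 0.35 and -0.59 in the 4 sorts with a standard error of 0.76 and was not called.

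Ordered by mean signal, Dnmt3l stood at 2619 in VEGF-R2 negative cells, then at 1046 in CD41 negative cells, then at 549.7, 453 and 333 in CD144 positive cells of day 3.5, CD144 negative cells of day 6.5 and CD144 positive cells of day 6.5, then at 162 in CD144 negative cells of day 3.5 and 159 in VEGF-R2 positive cells, and last at 86.4 in CD41 positive cells. Each step between these 5 blocks passed the threshold and no step within them did. For Tet1 the blocks were CD41 negative and VEGF-R2 negative cells at 3529 and 2925, CD144 negative cells of day 6.5 and day 3.5 at 1498 and 1319, CD144 positive cells of day 3.5 at 739, and CD144 positive cells of day 6.5, VEGF-R2 positive and CD41 positive cells at 397, 384 and 366. With 1429448_s_at of Tet1 the step from CD144 negative to CD144 positive cells of day 3.5 was the one called (adjusted p = 0.018). The other borders were not called (adjusted p = 0.158 and 0.157), and with 1419896_at no step was. For Dnmt3b the 4 negative populations and CD144 positive cells of day 3.5 had 12428 to 17412, VEGF-R2 positive and CD41 positive cells had 7858 and 7242, and CD144 positive cells of day 6.5 had 3089. The second Dnmt3b probe set did not keep the first of these blocks. With it, CD144 negative cells had 5278 at day 3.5 and 3192 at day 6.5, a called step (adjusted p = 0.0243). VEGF-R2 positive and CD41 positive cells followed at 3048 and 2878. By the brightest probe sets no neighbours in the order differed for Dnmt1, Dnmt3a, Tet2 or Tet3. For Uhrf1 the last step, to CD144 positive cells of day 6.5, was the one called, and with 1415811_at no step was. With 1423064_at and 1423065_at of Dnmt3a, however, VEGF-R2 negative cells stood first, at 4421 and 1797. Their step to the next population was called (adjusted p = 5.52e-06 and 0.000286).

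Next, the positive populations were compared with each other, to ask how the enzymes changed as VEGF-R2 positive cells gave way to cells with a blood or an endothelial marker. The day 3.5 and day 6.5 populations were all set against the same VEGF-R2 positive arrays, so these comparisons are not independent. CD41 positive cells had 1 member higher and 1 lower than VEGF-R2 positive cells, beside 5.02% and 4.82% of all probe sets, 9.84% together. In CD144 positive cells of day 3.5, 3 members were higher and none lower, beside 4.87% and 2.84%, 7.71% together. In CD144 positive cells of day 6.5, 2 were higher and 2 lower, beside 9.40% and 6.10%, 15.5% together.

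The de novo enzyme Dnmt3b separated the CD144 positive populations of the 2 days. At day 3.5 its signals of 15534 and 17634 in CD144 positive cells were above the 7543 and 8173 of VEGF-R2 positive cells, a change of 1.08 (standard error 0.20, adjusted p = 0.00297). By day 6.5 the 2673 and 3505 of CD144 positive cells were below the VEGF-R2 positive ones, a change of -1.36 (adjusted p = 0.000174). Directly compared, CD144 positive cells of day 6.5 had 5.40-fold less Dnmt3b signal than CD144 positive cells of day 3.5, a change of -2.43 (standard error 0.20, adjusted p = 2.4e-06). No arrays overlapped, and this call was kept under each of 28 alternatives. With the second probe set the change was -3.44 (adjusted p = 8.6e-10).

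Against VEGF-R2 positive cells, Dnmt3l and Tet1 were also higher in CD144 positive cells of day 3.5. Of the 10 pluripotency markers, 8 were higher and 1 lower in that comparison, and 5 were higher and 1 lower at day 6.5. Their part in the Dnmt3b, Dnmt3l and Tet1 values was not tested. Dnmt3l had a change of 1.76 (standard error 0.24, adjusted p = 0.000185), which no alternative removed, and Tet1 one of 0.93 (standard error 0.18, adjusted p = 0.00429), which missed the threshold without replicate 1 of the CD144 positive cells (0.77, adjusted p = 0.0505). In CD144 positive cells of day 6.5 Dnmt3l remained above VEGF-R2 positive cells by 1.01 (adjusted p = 0.00737). Without replicate 1 of the CD144 positive cells of day 6.5 that value was 0.66 (adjusted p = 0.111), and without VEGF-R2 positive replicate 1 it was 0.84 (adjusted p = 0.0693). Tet1 differed by 0.05 there and was not called. Dnmt3l was lower in CD41 positive than in VEGF-R2 positive cells by a change of -0.83 (adjusted p = 0.034), a call lost under 13 of 28 alternatives. It was -0.66 (adjusted p = 0.199) without VEGF-R2 positive replicate 2 and -0.68 with replicate 1 of CD41 positive cells left out (adjusted p = 0.175). By its brightest probe set Dnmt1 had its highest signals of the series in CD41 positive cells. With 1435122_x_at their mean of 3123 lay below 3838 in CD144 negative cells of day 6.5 and 3541 in VEGF-R2 negative cells. With the brightest probe set CD41 positive cells differed in Dnmt1 from VEGF-R2 positive cells by 0.64 (standard error 0.14, adjusted p = 0.00538). Without VEGF-R2 positive replicate 2 this was 0.57 (adjusted p = 0.0532).

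Late changes separated Uhrf1, which fell, from Tet2, which rose. CD144 positive cells of day 6.5 had less Uhrf1 than VEGF-R2 positive cells, with 3439 and 3350 against 5545 and 4881, a change of -0.61 (standard error 0.13, adjusted p = 0.00322). With the second Uhrf1 probe set it was -0.64 and not called (adjusted p = 0.135). Tet2 had 815 and 558 in CD144 positive cells of day 6.5, against 211 and 387 in VEGF-R2 positive cells, a change of 1.22 (standard error 0.26, adjusted p = 0.00322). The arrays did not overlap, but the change was 0.79 without VEGF-R2 positive replicate 1 (adjusted p = 0.0583) and 0.95 without replicate 1 of the CD144 positive cells (adjusted p = 0.0557). The second Tet2 probe set had 486 and 570.5 in CD144 positive cells of day 6.5, against 108 and 127 in VEGF-R2 positive cells, a change of 2.11 (adjusted p = 0.00131). Markers of other cells moved in this comparison too: 6 of 6 primitive blood genes were higher, with sums of 40708 and 49226 in CD144 positive cells of day 6.5, against 1160 and 1667 in VEGF-R2 positive cells, and 4 of 8 feeder and mesenchyme genes were higher and 2 lower. Their part in the Tet2 value was not tested. Tet3 had a change of -2.24 (standard error 0.76, adjusted p = 0.0556) in the same comparison and was not called.

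Between the CD144 positive populations of the 2 days, 1 member was higher and 3 were lower at day 6.5, beside 3.20% and 2.64% of all probe sets, 5.84% together. Besides Dnmt3b, Uhrf1 had a change of -0.62 (adjusted p = 0.0095) and Tet1 one of -0.88 (adjusted p = 0.00865). Both were lost without replicate 1 of the CD144 positive cells of day 3.5 (Uhrf1 -0.51, adjusted p = 0.0707; Tet1 -0.73, adjusted p = 0.0745) or without replicate 2 of those at day 6.5 (Uhrf1 -0.60, adjusted p = 0.0526; Tet1 -0.83, adjusted p = 0.0571). The member that was higher, Tet2, had a change of 0.89 (adjusted p = 0.0496), which was lost under 20 of 28 alternatives (adjusted p of up to 0.306), leaving out replicate 1 of the CD144 positive cells of day 6.5 or either array of those at day 3.5 among them. With the positive populations fitted alone, the calls of Uhrf1, Tet1 and Tet2 were lost. With the second Uhrf1 probe set the change of Uhrf1 was 0.25, opposite in sign and not called (adjusted p = 0.672). The primitive blood sums were 40708 and 49226 in CD144 positive cells of day 6.5, against 4664 and 4556 in those of day 3.5, with 3 of 6 genes higher, and 6 of the 8 feeder and mesenchyme genes were higher and 1 lower. Of the other lists 7 of 10 pluripotency and 5 of 11 cycling genes were lower and none higher. The part of these cells in the member values was not tested.

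On day 3.5 the CD144 positive and the CD41 positive cells were compared directly, since both follow the VEGF-R2 positive stage. The members called were all higher in CD144 positive cells, 4 of 8, where 9.78% of all probe sets were called, 6.06% higher and 3.72% lower. They were the 3 members of the Dnmt3 family and Tet1. With its second probe set, however, Uhrf1 was called lower in CD144 positive cells, by a change of -0.98 (adjusted p = 0.0295). Dnmt3l had 536 and 563 in CD144 positive cells, against 76.7 and 96.2 in CD41 positive cells, a change of 2.60 (standard error 0.24, adjusted p = 2.05e-06) or 6.04-fold. Dnmt3b had a change of 1.23 (adjusted p = 0.000643), Tet1 one of 0.99 (adjusted p = 0.00167) and Dnmt3a one of 0.68 (adjusted p = 0.0423), the last lost under 15 of 28 alternatives (adjusted p of up to 0.234) that included leaving out replicate 1 of the CD41 positive cells or either CD144 positive array. The 10 pluripotency markers were all higher in CD144 positive cells in this comparison.

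In the negative populations Dnmt3a, Dnmt3l and Tet1 were lower at later days, by the brightest probe sets. Against VEGF-R2 negative cells, which the 3 comparisons share, 2 members were lower in CD41 negative cells, 3 in CD144 negative cells of day 3.5 and 3 in CD144 negative cells of day 6.5. None was higher. The share of all probe sets that were lower was 1.89%, 3.24% and 3.72%, the share that were higher was 1.57%, 3.90% and 5.05%, and the share called in either direction was 3.46%, 7.14% and 8.78%. Dnmt3a was lower in all 3, with changes of -1.55 (adjusted p = 0.000232), -2.15 (adjusted p = 3.58e-06) and -2.53 (adjusted p = 4.96e-07). Dnmt3l was lower in all 3 as well, with changes of -1.32 (adjusted p = 0.004), -3.98 (adjusted p = 4.82e-08) and -2.52 (adjusted p = 3.71e-06), and the first of these missed the threshold when replicate 1 of CD41 negative cells was left out (-1.28, adjusted p = 0.0601) or either VEGF-R2 negative array was (-1.33, adjusted p = 0.0646, and -1.31, adjusted p = 0.0718). Tet1 was lower in CD144 negative cells of day 3.5, by a change of -1.13 (adjusted p = 0.000689), and at day 6.5, by a change of -0.96 (adjusted p = 0.00237) that was -0.75 without replicate 2 of the VEGF-R2 negative cells (adjusted p = 0.0794). With the Tet1 probe set of largest variance, 1429448_s_at, the changes were -0.99 (adjusted p = 0.109) and -0.86 (adjusted p = 0.158). In CD41 negative cells Tet1 had a change of 0.28 and was not called. The second probe set of Dnmt3b was called lower in CD144 negative cells of day 3.5 (-0.998, adjusted p = 0.000286) and of day 6.5 (-1.72, adjusted p = 1.01e-06). That of Uhrf1 was called lower in CD144 negative cells of day 6.5 (-1.11, adjusted p = 0.0155). Cell type markers moved as well: in CD144 negative cells of day 3.5, 6 of 6 early mesoderm genes were higher, with sums of 18885 and 18431, against 5310 and 4803 in VEGF-R2 negative cells, and 6 of 10 pluripotency genes were lower and 1 higher. In CD144 negative cells of day 6.5, 5 of 6 primitive blood genes were higher, with sums of 42109 and 46830, against 589 and 427 in VEGF-R2 negative cells, and 3 pluripotency genes were lower and 1 higher. Their part in the member values was not tested.

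**Figure D3:**
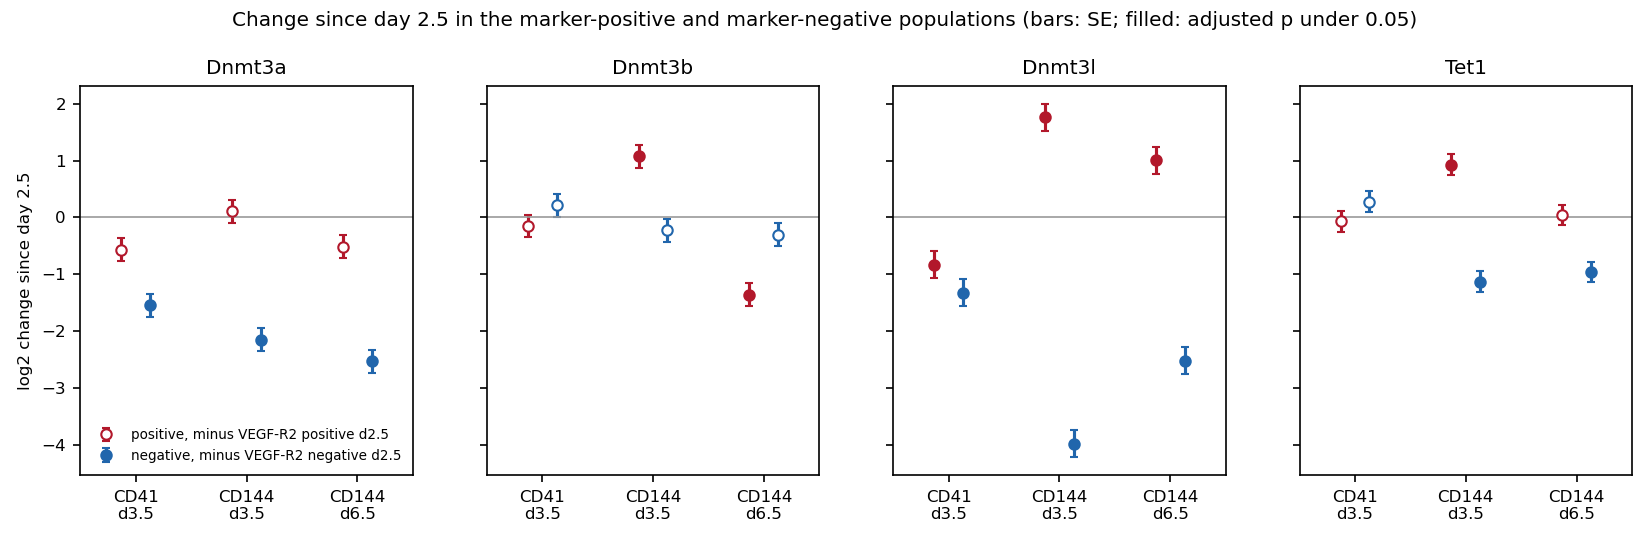
Change of Dnmt3a, Dnmt3b, Dnmt3l and Tet1 since day 2.5, as the difference of log2(signal + 6) from the VEGF-R2 population of the same sign, with standard errors; filled points passed an adjusted p of 0.05. For Dnmt3l in the CD144 sort of day 3.5 the positive cells lay at 1.76 and the negative cells at -3.98.

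To test whether an enzyme changed differently in the positive cells than in the negative cells, the change since day 2.5 in the negative cells was taken from that in the positive cells. For the CD144 sort of day 3.5 this difference was called for 4 members, all higher, beside 5.30% of all probe sets called, 3.10% higher and 2.20% lower. Dnmt3l had a difference of 5.74 (standard error 0.34, adjusted p = 4.43e-08), with a change of 1.76 in the positive and of -3.98 in the negative cells. Dnmt3a had one of 2.26 (standard error 0.28, adjusted p = 8.69e-05), made up of 0.11 in positive and -2.15 in negative cells. Tet1 had one of 2.06 (standard error 0.26, adjusted p = 8.23e-05), with opposite changes of 0.93 and -1.13. In CD41 negative cells of the same day, Dnmt3l had a change of -1.32 and Tet1 one of 0.28. Both differences therefore depend on which negative cells are taken. The Dnmt3b difference of 1.30 (standard error 0.28, adjusted p = 0.0103) was lost under 6 of 27 alternatives, among them leaving out replicate 2 of the CD144 positive, CD144 negative or VEGF-R2 negative cells (adjusted p of up to 0.122). The second Dnmt3b probe set gave 2.48 (adjusted p = 1.02e-06). Of the 10 pluripotency markers, 8 had a difference called higher and 1 lower in the CD144 sort of day 3.5. In that of day 6.5, 6 were higher and 1 lower. Their part in the member values was not tested.

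At day 6.5 the difference was called higher for 3 members and lower for 1, beside 2.80% and 2.05% of all probe sets, 4.84% together. Dnmt3l (3.53, standard error 0.34, adjusted p = 8.27e-06) and Dnmt3a (2.01, standard error 0.28, adjusted p = 0.000396) kept their calls under each alternative. For these genes no alternative used another probe set, and the other Dnmt3a probe sets gave smaller values, listed further below. The Tet1 difference of 1.01 (adjusted p = 0.0309) was lost under 13 of 27 alternatives (adjusted p of up to 0.202) and the Dnmt3b difference of -1.06 (adjusted p = 0.041) under 18 (adjusted p of up to 0.62). For both, leaving out either VEGF-R2 positive array, replicate 1 of the CD144 positive cells or replicate 2 of the CD144 negative cells was enough. The second Dnmt3b probe set gave -0.24 (adjusted p = 0.62). In the CD41 sort 1 member was called, Dnmt1, with a difference of 0.75 (standard error 0.19, adjusted p = 0.0315), beside 4.73% of all probe sets called, 2.33% higher and 2.40% lower. That call was lost under 12 of 27 alternatives, among them leaving out either array of the CD41 positive, CD41 negative or VEGF-R2 negative cells or replicate 2 of the VEGF-R2 positive cells (adjusted p of up to 0.232).

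Probe sets of the same gene did not always move together. The 5 probe sets of Dnmt3a correlated with each other with r of -0.29 to 0.84 over the 16 arrays, and the pair for Uhrf1 with r of 0.65, whereas the pair for Dnmt3b had 0.93. In the VEGF-R2 sort 4 of the 5 Dnmt3a probe sets were called lower, with changes of -0.57 to -1.79, and the fifth, 1460324_at, had -0.48 (adjusted p = 0.199). In the CD41 sort, where the brightest was not called, 1423064_at, 1423063_at and 1423065_at were lower with changes of -0.80, -1.05 and -0.65. In the CD144 sort of day 3.5 the probe set 1423066_at was at 1.69 and 1423064_at at 0.83 (adjusted p = 0.000668), both higher, while 1423063_at was lower at -0.62 (adjusted p = 0.0196) and the others were not called. At day 6.5 the brightest was higher by 1.44, 1423065_at was lower with a change of -0.92 (adjusted p = 0.00189) and the other 3 were not called. The higher Dnmt3a of CD144 positive cells therefore rests on 2 probe sets at day 3.5 and on 1 at day 6.5. The loss in negative cells since day 2.5 was called for 3 probe sets in CD144 negative cells of day 3.5 and for 4 at day 6.5. Which transcript ends or isoforms each probe set reports is not given in the sources used here.

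**Figure D4:**
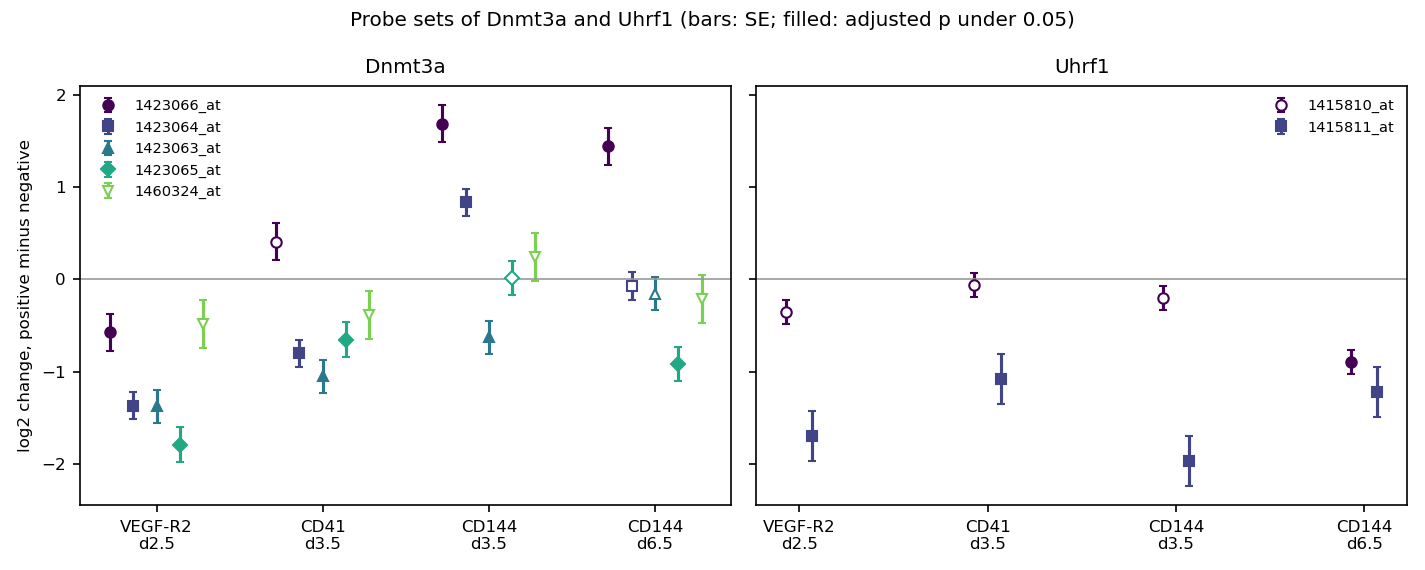
Change between positive and negative cells, as the difference of log2(signal + 6), for the 5 probe sets of Dnmt3a and the 2 of Uhrf1 in the 4 sorts, with standard errors; filled points passed an adjusted p of 0.05. In the CD144 sort of day 3.5 the Dnmt3a probe sets ran from -0.62 to 1.69.

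For Uhrf1 the dimmer probe set 1415811_at was lower in the positive cells of every sort, with changes of -1.69, -1.08, -1.96 and -1.22, while the brighter one was lower at day 6.5 and not called in the other 3. Both therefore had lower Uhrf1 in CD144 positive cells of day 6.5. For Dnmt1 the probe sets followed each other, with r of 0.80 to 0.89, and each of the 3 was lower in the positive cells of the VEGF-R2 sort and of the late CD144 sort, with changes of -0.39 to -1.09 and of -0.49 to -1.02. Of the 4 Tet1 probe sets, 3 were lower in VEGF-R2 positive and in CD41 positive cells, and 1419897_at, with a mean signal of 27.2, was not called in any comparison.

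Genes that work with these enzymes moved in both directions. Of 42 listed readers, recruiters and demethylation factors, 37 were measured. In VEGF-R2 positive cells 6 were higher and 14 lower than in VEGF-R2 negative cells, with a median change of -0.31 against 0.08 over all probe sets, of which 11.1% were higher and 13.8% lower. For CD41, 8 were higher and 15 lower in positive cells (median -0.43), beside 13.5% and 15.8% of all probe sets (median 0.10). In CD144 positive cells 10 were higher and 8 lower at day 3.5, and 6 were higher and 11 lower at day 6.5 (medians 0.16 and -0.09). Over all probe sets, 9.49% were higher and 10.5% lower at day 3.5, and 9.41% and 10.1% at day 6.5 (medians 0.10 and 0.07).

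Among them Hells, a chromatin remodeller needed for DNA methylation, had 1595 and 1585 in CD41 positive cells, against 7207 and 7256 in CD41 negative cells. The change was -2.18 in this sort (adjusted p = 3.96e-09), -2.04 in the VEGF-R2 sort (adjusted p = 3.64e-08) and -1.51 in the CD144 sort of day 6.5 (adjusted p = 8.28e-07). In the CD144 sort of day 3.5 Hells was lower as well, with 2454 and 2184 in positive cells, against 4675 and 4488 in negative cells. Dppa3, an oocyte and ES cell protein that keeps Uhrf1 from DNA, had 1229 and 1397 in CD144 positive cells of day 3.5, against 233 and 291 in CD144 negative cells, a change of 2.30 (adjusted p = 4.87e-05). In the CD41 sort it had 81.8 and 192 in positive cells, against 1453 and 1346 in CD41 negative cells, a change of -3.41 (adjusted p = 2.58e-07). Mbd2, a protein that binds methylated DNA, was higher in CD41 positive cells by 2.69 (adjusted p = 2.7e-07) and in the CD144 positive cells of both days, by 1.59 (adjusted p = 0.000168) and 1.19 (adjusted p = 0.00185). Gadd45a, linked to active demethylation, had 326 and 171 in VEGF-R2 positive cells, against 2233 and 2420 in VEGF-R2 negative cells, a change of -3.27 (adjusted p = 7.99e-07).

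Germline genes whose promoters are methylated in the early embryo, and which ES cells express at low level, were examined as known targets of these enzymes. Of 19 listed, 17 were measured. In VEGF-R2 positive cells 9 were lower and none higher than in VEGF-R2 negative cells (median -1.25), in CD41 positive cells 10 were lower and none higher (median -2.45), and in CD144 positive cells of day 3.5, 6 were higher and none lower (median 0.84). At day 6.5, 2 were higher and 1 lower in CD144 positive cells (median 0.13). Of all probe sets, 13.8% were lower for VEGF-R2, 15.8% lower for CD41, 9.49% higher for CD144 at day 3.5 and 9.41% higher at day 6.5, with medians of 0.08, 0.10, 0.10 and 0.07. Tex19.1 had 185 and 199 in VEGF-R2 positive cells, against 2447 and 2421 in VEGF-R2 negative cells, a change of -3.62 (adjusted p = 4.23e-09). Dazl, an RNA-binding protein of germ cells, had 97.9 and 96.8 in CD144 positive cells of day 3.5, against 9.77 and 4.76 in CD144 negative cells, and was called higher (adjusted p = 0.00816). These negative signals lie near the 10th percentile of all values, 6.03, so that the size of the change depends on the offset and is not given. The difference of the changes since day 2.5 in the CD144 sort was called higher for 8 of the 17 at day 3.5 and for 5 at day 6.5, and lower for none, beside 3.10% and 2.80% of all probe sets called higher. The medians were 2.64 and 1.83, against 0.02 and 0.03 over all probe sets. The germline list includes dim genes such as Dazl, so the sizes of its medians, here and in the sorts, can depend on the offset too. DNA methylation itself was not measured.

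Finally, the genes whose signals ran closest to each member over the 16 arrays were listed, among probe sets above the median signal. Arrays of a population are duplicates, so these correlations describe 8 populations more than 16 separate samples. For Dnmt3l they were Tex19.1 (r = 0.982), Fam25c (0.971) and Utf1 (0.953), a transcription factor of ES cells. For Tet1 they were Morc3 (0.986), Hells (0.981) and Bclaf3 (0.979), and for Dnmt3b Rab19 (0.957), Calcr (0.953) and the replication protein gene Rpa1 (0.951). Dnmt1 ran with Anapc5 (0.901), the proliferation marker Mki67 (0.851) and Lrwd1 (0.851), and Uhrf1 with Lars (0.945), Nup133 (0.938) and Xpot (0.935). The closest genes to Dnmt3a were Knop1 (0.928), Aspscr1 (0.915) and Kcnk6 (0.911). The closest genes to Tet2 (Pde8a, 0.864) and Tet3 (Tbc1d13, 0.875) had the lowest r among the closest genes of the members. All were picked as the highest of many genes, and Tet3, for which little could be measured, still reached 0.875. Rab19 and Calcr had mean signals of 9.58 and 3.25 in CD144 positive cells of day 6.5, near the low end of all values. Among the members themselves, Dnmt3l and Tet1 had r of 0.77, Uhrf1 and Dnmt3b 0.76, Dnmt1 and Uhrf1 0.72 and Dnmt3b and Tet1 0.72, whereas Dnmt3a and Tet1 had -0.16.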

How the data were processed

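RNA of 8 sorted populations, 2 arrays each, was hybridised to Affymetrix Mouse Genome 430 2.0 arrays. On these a probe set is a group of short oligonucleotides that are read together as 1 signal. The deposited values were intensities: MAS5 signals on a linear scale, which the authors had scaled array by array to a common trimmed mean and left unpooled, with no version given. The authors drew their own gene lists with dChip, whose values were not used here. Scanner files were not analysed here, so background correction and probe summary could not be varied, and the precision of a value is limited by the 2 arrays per population.

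After 64 control probe sets were left out, log2(signal + 6) of 45037 probe sets was fitted over all 16 arrays with limma 3.58.1 in R 4.3.3 (lmFit, eBayes with a trend), for 15 comparisons. The offset lowers the change of dim genes. A call is a Benjamini-Hochberg adjusted p under 0.05 over all probe sets of a comparison. Of these probe sets, 34945 had 1 symbol, 932 several and 9160 none. Figures were drawn with matplotlib 3.10.9. Alternatives, up to 28 a result, changed the offset, normalization, filter on dim probe sets, arrays in the fit, variance model, probe set or replicate block, required a fold beyond 2, or left out 1 array. The replicates came from separate experiments with 1 cell line, so p-values cover that spread alone. The script was tested on simulated data.

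Named genes were the members, the sort markers, up to 4 called genes with the largest change per partner or germline list and comparison, and the 3 genes most like each member. Members and lists were chosen with earlier results of these data known.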

Additional observations from a re-analysis of the deposited data

Results flagged for a closer look

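For 5 members the change since day 2.5 differed between the positive and the negative cells of a sort by the test of that difference itself in limma, and these 9 values are given without an explanation. For Dnmt3l the change in positive cells minus that in negative cells was 5.74 in the CD144 sort of day 3.5 and 3.53 in that of day 6.5. The day 3.5 value rests on CD144 negative cells, with a mean signal of 162, while CD41 negative cells of that day had 1046. Dnmt3a had 2.26 and 2.01 in those sorts, but with its other probe sets the day 3.5 value ran from 0.72 to 2.20 and the day 6.5 value from 0.27 to 1.30. Tet1 had 2.06 and 1.01, and Dnmt3b had 1.30 and -1.06, opposite in sign at day 3.5 and day 6.5. Dnmt1 had 0.75 in the CD41 sort. The comparisons of the 2 CD144 sorts share the VEGF-R2 arrays.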

How the results depend on the processing

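Of 3289 values recomputed for members, 3054 kept their direction and side of the threshold, 179 lost a call, 55 gained one and 1 reversed. The reversal was Uhrf1 between CD144 positive cells of day 6.5 and of day 3.5, at 0.25 with its probe set of largest variance. The cause of these changes was not tested. Replicate numbers did not pair the arrays: deviations of same-numbered arrays correlated with r of -0.047 to 0.047 in 28 pairs of populations. With the replicate block, 2 members in place of 1 were called in the CD41 difference of changes, the Tet2 call between the CD144 positive populations was lost, and the number of members called moved by no more than 1.5 times in the other comparisons.

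Counts of members called moved by over 1.5 times as follows. In the VEGF-R2 sort 5 were called, against 3 with equal array medians or with a robust prior without trend and 2 where the 90% bound of the fold had to lie beyond 2. That bound also left 2 of 4 in the CD41 sort, 3 of 5 in the CD144 sort of day 6.5, and 1 of 4 in CD144 positive cells of day 6.5 against VEGF-R2 positive cells and of day 3.5 against CD41 positive cells. In the CD144 sort of day 3.5 the probe sets of largest variance gave 5 in place of 3. For CD41 positive against VEGF-R2 positive cells, the count of 2 became 1 with offset 32, equal medians, the groups compared alone, the positive populations alone or array weights, and 0 with the robust prior or the bound. For CD144 positive cells of day 3.5 against VEGF-R2 positive cells, 3 became 1 with the robust prior or the bound. Between CD144 positive cells of day 6.5 and day 3.5, 4 became 2 with the groups compared alone, array weights or the probe set of largest variance, and 1 with the positive populations alone, the robust prior or the bound. For CD41 negative against VEGF-R2 negative cells, 2 became 1 with the robust prior or the bound. The CD41 difference of changes had 1 member called, 2 with quantile normalization, dim probe sets left out, the groups compared alone or array weights, and 0 with equal medians, the robust prior or the bound. That of the CD144 sort of day 6.5 had 4, and 2 with quantile normalization, equal medians, the groups compared alone, the robust prior, the bound or the probe set of largest variance.

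With 1 array left out, where a lone array was assumed to vary like the other populations, 3 to 6 members were called in the VEGF-R2 sort, 3 to 5 in the CD41 sort, and 2 to 3 and 4 to 6 in the CD144 sorts of day 3.5 and day 6.5. Against VEGF-R2 positive cells, 0 to 3 were called in CD41 positive cells, and 2 to 3 and 2 to 5 in CD144 positive cells of day 3.5 and day 6.5. CD144 positive cells of day 3.5 gave 3 to 4 against CD41 positive cells, and those of day 6.5 gave 1 to 4 against those of day 3.5. Against VEGF-R2 negative cells, 1 to 2 were called in CD41 negative cells, and 3 to 3 and 2 to 3 in CD144 negative cells of day 3.5 and day 6.5. The differences of changes gave 0 to 2 for CD41, and 3 to 4 and 2 to 5 for CD144 at day 3.5 and day 6.5. Over all probe sets the VEGF-R2 sort had 11214 calls, with 3809 to 12725 over the alternatives, and CD41 negative against VEGF-R2 negative cells had 1560, with 374 to 6653.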
